A study of Mus musculus with 56 samples.

Results

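The 10 genes described here encode parts of the autophagy machinery and were chosen by name from the 19072 genes of the deposited table: Ulk1, Becn1, Atg14, Map1lc3a, Map1lc3b, Gabarapl1, Sqstm1, Bnip3, Ctsl and Tfeb. All 10 were found by gene ID, and all 10 passed the filter on low values that left 12024 genes for testing. Their RNA was measured by sequencing of polyadenylated RNA from the gastrocnemius muscle of the calf. The mice were C57BL/6J females, 9 weeks old, under a cycle of 12 h light and 12 h dark. They first had food freely for 7 days, and then had food for 7 days in the daytime only (DRF) or in the nighttime only (NRF, the reference). Muscle was collected at zeitgeber time (ZT, hours from lights on) 0, 4, 8, 12, 16, 20 and 24 under both regimens. Each of these 14 groups has 4 libraries, which makes 56. The labels do not say that the libraries of a group came from separate mice, so p-values measure the spread between libraries, which may be technical in part. The labels give no clock hours for the food. ZT0 and ZT24 were taken as the end of the fast in DRF and the end of feeding in NRF, and ZT12 as the reverse.

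Autophagy encloses cytoplasm in a double membrane and delivers it to the lysosome, where it is degraded and its building blocks are returned to the cell. The ULK1 kinase starts the process when nutrients are scarce, and a lipid kinase complex that holds Beclin 1 (Becn1) and ATG14 marks the membrane where the autophagosome forms. Proteins of the ATG8 family (Map1lc3a, Map1lc3b, Gabarapl1) are then joined to that membrane, and receptors such as p62 (Sqstm1) and BNIP3 tie cargo to them. Cathepsin L (Ctsl) degrades cargo in the lysosome, and the transcription factor TFEB drives many lysosomal and autophagy genes. In skeletal muscle the pathway is known for its response to fasting. RNA levels do not measure the rate at which autophagosomes are formed or cleared.

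Levels are given as CPM, read counts recovered from the deposited table per 1000000 of the authors' library size. Differences are on the log2(CPM + 1) scale with their standard error (SE), and adjusted p is from limma with Benjamini-Hochberg adjustment over the 12024 genes, with 0.05 as the threshold. Recovered totals were 28172991 to 36183392 reads a library, and the 10 most abundant genes of a library held 19.5% to 32.8% of its reads. The library of DRF at ZT20, replicate 1, stood farthest from its group, with a root mean square deviation of 0.407 on the log2 scale against 0.279 for the next library. Across genes, a library's deviation from the mean of all libraries correlated with gene length by a group average (Spearman's rho) of -0.200 in DRF at ZT16 to 0.193 in NRF at ZT0, and its part in the results was tested only by removing that trend. All 10 muscle markers looked for (Acta1, Ckm, Myh4 and others) were measured, with summed group means of 133117 to 223475 CPM. In bulk tissue fewer cells of a type and less RNA per cell cannot be told apart.

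The bases before the start sites are shown for 4 of the genes, because 3 of them (Gabarapl1, Ulk1, Atg14) were those whose daily curve differed between the regimens and the fourth, Bnip3, holds a motif searched for. The sequences are from RefSeq on GRCm38.p6, read 5′ to 3′ on the gene's strand, and end at the base before the start site or, for Ulk1, before the annotated gene. They span chr6:129532942-129533191 (plus strand) for Gabarapl1, chr5:110810121-110810331 (minus strand) for Ulk1, chr14:47568435-47568684 (minus strand) for Atg14 and chr7:138909507-138909756 (minus strand) for Bnip3. Capitals mark CACGTG, the E-box that clock factors and TFEB family factors can bind.
Gabarapl1: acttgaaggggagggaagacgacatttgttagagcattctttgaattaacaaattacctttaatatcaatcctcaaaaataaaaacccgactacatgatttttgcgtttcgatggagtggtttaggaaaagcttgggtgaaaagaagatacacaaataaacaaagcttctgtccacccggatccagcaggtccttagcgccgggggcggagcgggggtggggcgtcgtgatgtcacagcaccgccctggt
Ulk1: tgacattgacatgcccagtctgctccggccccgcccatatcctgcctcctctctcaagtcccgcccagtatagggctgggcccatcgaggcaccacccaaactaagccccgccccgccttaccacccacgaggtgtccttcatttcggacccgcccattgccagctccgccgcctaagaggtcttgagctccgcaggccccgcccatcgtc
Atg14: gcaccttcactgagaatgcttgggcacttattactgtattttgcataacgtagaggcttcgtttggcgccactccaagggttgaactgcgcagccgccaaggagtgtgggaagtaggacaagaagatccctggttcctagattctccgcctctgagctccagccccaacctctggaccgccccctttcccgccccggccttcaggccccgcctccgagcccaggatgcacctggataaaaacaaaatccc
Bnip3: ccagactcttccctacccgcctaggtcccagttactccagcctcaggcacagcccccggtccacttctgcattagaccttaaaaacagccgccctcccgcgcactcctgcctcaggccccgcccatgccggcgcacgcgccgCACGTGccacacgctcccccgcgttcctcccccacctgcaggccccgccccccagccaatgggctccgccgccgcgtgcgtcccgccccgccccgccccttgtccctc
Promoter windows of 250 bases were matched for 8 of the 10 genes, 10 windows in all. On both strands they were searched for CACGTG, for TCACGTG, which contains it, and for GTAAACA, a forkhead motif. CACGTG occurred in 2 windows, 108 bases before the start in Bnip3 and 236 bases before a start in Ctsl that lies inside the annotated gene. Over the 32851 windows of the table, 6.02% held CACGTG, 3.13% held TCACGTG and 3.17% held GTAAACA. Neither TCACGTG nor GTAAACA was found in the windows of the 8 genes, and other forms of the forkhead motif were not searched for.

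Compared per length (CPM per 1000 bases, mean ± SD over 56 libraries), the cargo receptor Sqstm1 was the most abundant of the 10 at 138 ± 18.7, followed by the mitophagy receptor Bnip3 at 113 ± 21.1 and Map1lc3a at 103 ± 12.4. A middle group held Gabarapl1 at 26.0 ± 10.8, Map1lc3b at 25.2 ± 2.93, Ctsl at 19.6 ± 2.70, Ulk1 at 17.7 ± 4.01 and Tfeb at 15.6 ± 2.48. Becn1 stood at 8.58 ± 0.666 and Atg14 lowest at 2.50 ± 0.389. Neighbours in this order overlapped within 1 SD except for Map1lc3a over Gabarapl1, Tfeb over Becn1, and Becn1 over Atg14. The lengths are those recovered with the counts, such as 1181 bases for Map1lc3a and 7517 for Map1lc3b, and the order depends on them. In CPM not divided by length, Map1lc3b (mean 189.6) stood above Map1lc3a (122).

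Under DRF 3 of the 10 transcripts, Gabarapl1, Ulk1 and Atg14, had a daily curve that differed from that under NRF, and the same 3 were higher at the end of the fast than at the end of feeding. The plot of levels over the day shows Gabarapl1 and Ulk1 rising through the dark-phase fast of DRF to ZT24 and falling to ZT12, and staying flatter under NRF. A different 24 h curve was found for 13.1% of all genes tested. A 24 h rhythm within DRF passed for 8 of the 10 genes (all but Sqstm1 and Ctsl), against 48.7% of all genes, and within NRF for 1 (Atg14), against 15.1% of all genes. The fitted peak-to-trough difference was larger in DRF for 9 of the 10, all but Ctsl, and for 70.8% of all genes. Its median over the 10 was 0.35 in DRF and 0.16 in NRF on the log2 scale, beside 0.26 and 0.16 over all genes tested. The counts of 8 and 1 do not test a difference between the regimens. The test of the difference gave the count of 3.

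**Figure D1:**
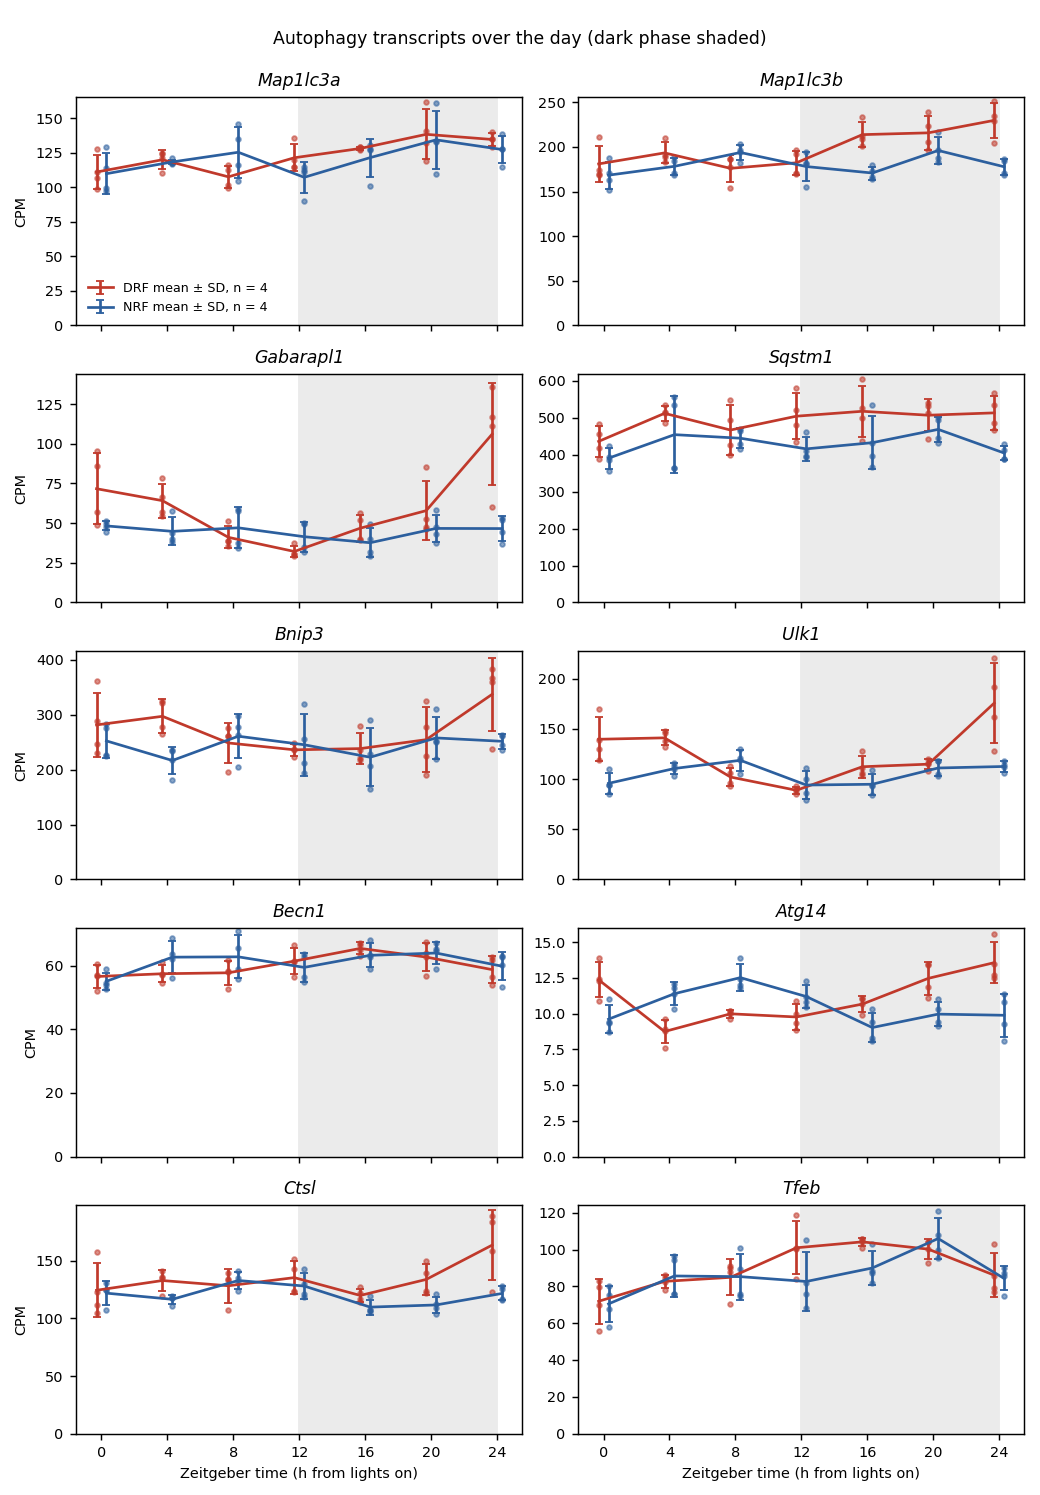
CPM of each of the 10 genes against zeitgeber time in hours, from 0 to 24, with DRF in red and NRF in blue; points are single libraries, lines join group means, bars are the SD of 4 libraries, and the dark phase is shaded. Gabarapl1 reached a mean of 106 CPM at ZT24 in DRF against 46.6 in NRF, and Ulk1 176 against 113.

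In DRF 3 genes were higher at the end of the fast (Gabarapl1, Ulk1, Atg14), where 11.0% of all genes were, and 1 was lower (Tfeb), where 9.52% were. In NRF none of the 10 passed limma in either direction, 1 had an unadjusted p under 0.05, and limma voom also called 0, while 4.47% of all genes were higher at the end of the fast and 5.32% lower. The fast minus fed difference itself was unequal in the 2 regimens for 3 genes (Gabarapl1, Ulk1 and Tfeb), beside 19.2% of all genes. Fast and fed fall at opposite clock times, so this contrast equals ZT0 and ZT24 minus ZT12 summed over both regimens. A gene with the same curve in both regimens can pass it too, so it does not separate regimen from clock time. Averaged over the day 5 genes were higher in DRF (Sqstm1, Map1lc3b, Ulk1, Ctsl and Gabarapl1), beside 8.35% of all genes, and none was lower, with none at an unadjusted p under 0.05 and 0 by limma voom, beside 7.53% of all genes. The members' median difference was 0.12 and that of all genes 0.00 (log2).

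At single times the regimens differed for 5 of the 10 genes at 1 time or more, and the share of all genes is given for each time only. At ZT24 5 genes were higher in DRF (Ulk1, Gabarapl1, Atg14, Map1lc3b, Ctsl), where 3.49% of all genes were higher and 2.06% lower. At ZT0 Ulk1 and Atg14 were higher, where 0.882% of all genes were. Map1lc3b was higher at ZT16 (4.02% of all genes) and Atg14 at ZT20 (0.715%), and Atg14 was lower in DRF at ZT4 (0.299%). No member passed at ZT8 or ZT12 in limma, with 3 at an unadjusted p under 0.05 at each time. Of all 12024 genes, 25 passed at ZT8 and 421 at ZT12.

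Ulk1 (gene 22241, chromosome 5, 110784489 to 110810120) encodes the kinase that initiates autophagosome formation. In DRF its 4 libraries held 170.2, 139, 130.2 and 119 CPM at ZT0, 138, 146, 132 and 148 at ZT4, 92.6, 85.1, 89.9 and 87.6 at ZT12, and 220.4, 128, 162 and 192 at ZT24. In NRF they held 84.9, 94.2, 94.1 and 109.6 CPM at ZT0, 113, 116, 110.0 and 103 at ZT4, 85.9, 111, 79.4 and 99.8 at ZT12, and 112, 118, 114 and 106 at ZT24. Every DRF library was above every NRF library at ZT0, ZT4 and ZT24, and the groups overlapped at ZT12. The fitted curve of Ulk1 had a peak-to-trough difference of 0.73 in DRF (peak at 0.472 h) and 0.21 in NRF (peak at 4.01 h), and the curves differed (adjusted p = 0.00340).

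At the end of the fast Ulk1 was higher than at the end of feeding by 0.79 ± 0.09 (SE, log2) in DRF (limma adjusted p = 2.45e-08), a 1.73-fold difference, and differed by -0.15 ± 0.09 in NRF (adjusted p = 0.377). The difference between these values was 0.94 ± 0.13 (adjusted p = 4.52e-07). Ulk1 was higher in DRF by 0.54 ± 0.11 at ZT0 (adjusted p = 0.00417) and by 0.61 ± 0.11 at ZT24 (adjusted p = 0.000386), while 0.35 ± 0.11 at ZT4 missed the threshold (adjusted p = 0.115). On average over the day Ulk1 was higher by 0.15 ± 0.04 (adjusted p = 0.0127). The ZT0 call was lost without DRF ZT0 replicate 1 (adjusted p = 0.0513), and the average call under scaling by total counts (0.08, adjusted p = 0.183) and with the log2 of the deposited values (0.0657).

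Becn1 (gene 56208, chromosome 11, 101288258 to 101302286) encodes Beclin 1, the scaffold of the lipid kinase complex. It had the smallest SD relative to its mean of the 10 genes. It ran from 52.1 to 67.4 CPM in DRF (median 60.8) and from 52.8 to 71.0 in NRF (median 62.6), and the regimens overlapped at every time. It had a rhythm in DRF (peak-to-trough 0.20, peak at 16.1 h, limma adjusted p = 0.0172), which was lost under total-count scaling (0.01, adjusted p = 0.935) and with the log2 of the deposited values (0.141). The average over the day differed by -0.03 ± 0.03 (adjusted p = 0.534), and under total-count scaling Becn1 was lower in DRF (-0.10, adjusted p = 6.15e-05). All 56 of its recovered counts hold decimals, which may mark reads shared with another gene. Becn1 also overlaps Cntd1 (mean 0.409 CPM) by 444 bases, so its values are uncertain.

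Atg14 (gene 100504663, chromosome 14, 47540893 to 47568434), which directs the lipid kinase complex to autophagosome formation, was the gene among the 10 with a rhythm in both regimens, at nearly opposite phases. In DRF the 4 libraries held 13.9, 12.3, 12.4 and 10.9 CPM at ZT0, 9.64, 8.80, 8.93 and 7.63 at ZT4, 9.97, 10.2, 9.60 and 10.2 at ZT8, and 9.96, 10.9, 9.38 and 8.84 at ZT12. Later they held 9.89, 11.0, 10.7 and 11.1 CPM at ZT16, 11.9, 13.4, 11.1 and 13.5 at ZT20, and 15.6, 12.5, 12.7 and 13.5 at ZT24. Thus the DRF libraries were lowest at ZT4 and highest at ZT24. In NRF the libraries held 11.0, 9.32, 9.40 and 8.74 CPM at ZT0, 10.3, 11.4, 12.1 and 11.8 at ZT4, 12.4, 13.9, 11.8 and 12.0 at ZT8, and 10.8, 12.3, 10.5 and 11.2 at ZT12. Later they held 9.42, 8.08, 10.3 and 8.32 CPM at ZT16, 9.15, 11.0, 10.3 and 9.43 at ZT20, and 10.8, 11.4, 8.11 and 9.25 at ZT24. The NRF libraries were above all DRF libraries at ZT4 and ZT8 and below all of them at ZT20 and ZT24.

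The fitted peak of Atg14 was at 21.0 h in DRF (peak-to-trough 0.45, limma adjusted p = 6.64e-05) and at 7.50 h in NRF (0.38, adjusted p = 0.00232), and the curves differed (adjusted p = 7.71e-06). In all alternatives tried the adjusted p of that difference was 2.29e-06 to 0.000176. Atg14 differed between the regimens by -0.35 ± 0.09 at ZT4 (adjusted p = 0.0321), 0.33 ± 0.09 at ZT0 (adjusted p = 0.0292), 0.30 ± 0.09 at ZT20 (adjusted p = 0.0480) and 0.43 ± 0.09 at ZT24 (adjusted p = 0.00180), and by -0.30 ± 0.09 at ZT8 (adjusted p = 0.172). Leaving out 1 library ended the ZT0 call in 6 of 56 cases (highest adjusted p = 0.178), the ZT4 call in 6 (0.165), the ZT20 call in 35 (0.124) and the ZT24 call in 0. Total-count scaling ended the calls at ZT0 (adjusted p = 0.221), ZT4 (0.120) and ZT20 (0.156). The ZT20 call was lost in 7 of 12 other settings in all, limma voom (0.0531) among them, and the ZT0 call also with the log2 of the deposited values (0.0551). Averaged over the day the regimens differed by 0.01 ± 0.03 (adjusted p = 0.846).

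At the end of the fast Atg14 was higher than at the end of feeding by 0.37 ± 0.08 in DRF (limma adjusted p = 0.000310), a 1.30-fold difference. In NRF the same contrast gave 0.19 ± 0.08 (adjusted p = 0.112, and 0.0436 with library weights), and the difference between the regimens was 0.18 ± 0.11 (adjusted p = 0.228).

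The 3 ATG8 family genes gave different results. Gabarapl1 (gene 57436, chromosome 6, 129533192 to 129542331), which acts late in autophagosome formation, had the largest daily range of the 10 in DRF, though not in NRF. In DRF its libraries held 85.9, 56.8, 95.4 and 48.5 CPM at ZT0, 78.3, 54.6, 57.1 and 66.5 at ZT4, 38.8, 35.5, 51.2 and 38.6 at ZT8, and 29.5, 37.7, 30.5 and 30.8 at ZT12. Later they held 51.9, 56.2, 39.8 and 39.3 CPM at ZT16, 85.2, 46.1, 47.6 and 52.5 at ZT20, and 136, 60.2, 111 and 117 at ZT24. Replicate 2 at ZT24 was far below the other three of its group but still above every NRF library at that time. The NRF libraries of Gabarapl1 ranged from 29.1 to 58.7 CPM (median 44.5), and at ZT24 they held 36.7, 53.3, 51.8 and 44.4. At all times but ZT24 the libraries of the regimens overlapped.

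The group means of Gabarapl1 spanned 32.2 CPM (ZT12) to 106 (ZT24) in DRF, a 3.29-fold range, and 37.6 (ZT16) to 48.2 (ZT0) in NRF, a 1.28-fold range. Its fitted peak-to-trough difference was 1.25 in DRF with the peak at 24 h (limma adjusted p = 1.74e-07) and 0.27 in NRF (adjusted p = 0.525), and the curves differed (adjusted p = 0.00458). Fast minus fed was 1.36 ± 0.19 in DRF, a 2.57-fold difference (adjusted p = 6.91e-07), and -0.21 ± 0.19 in NRF (adjusted p = 0.597), which differed by 1.57 ± 0.27 (adjusted p = 1.73e-05). Gabarapl1 was 2.18-fold higher in DRF at ZT24 (1.12 ± 0.22, adjusted p = 0.000999). Without ZT24 the curves no longer differed at the threshold (adjusted p = 0.0618), while the fast minus fed differences kept their calls.

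On average over the day Gabarapl1 was higher in DRF by 0.24 ± 0.08 (limma adjusted p = 0.0485), close to the threshold. The call was lost in 36 of 56 cases of leaving out 1 library (highest adjusted p = 0.0949, without DRF ZT20 replicate 1) and in 8 of 12 other settings, among them total-count scaling (adjusted p = 0.226) and the replicate block (adjusted p = 0.0519). Gabarapl1 overlaps the long noncoding RNA 1700101I11Rik by 93 bases, where reads of the 2 genes cannot be told apart.

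**Figure D2:**
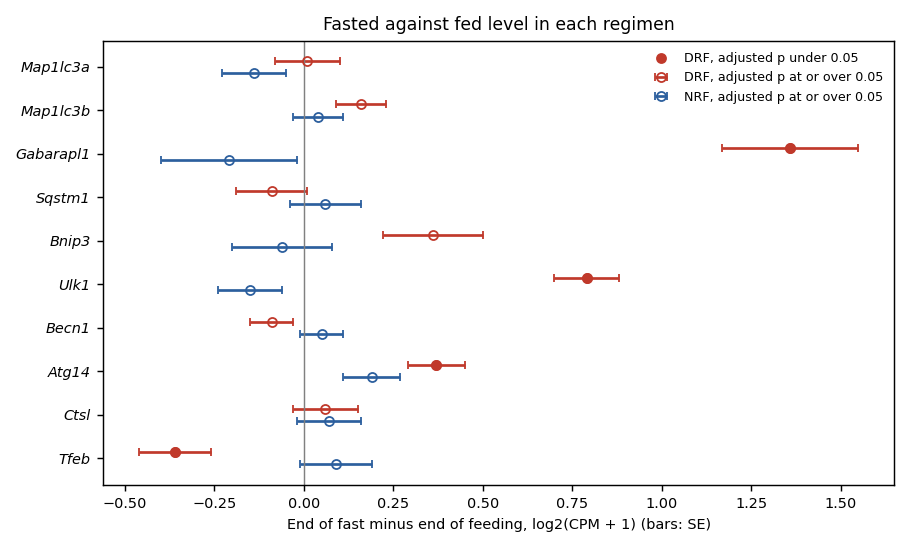
End of fast minus end of feeding in log2(CPM + 1) for each gene, DRF in red and NRF in blue, with bars for the SE and filled points for an adjusted p under 0.05. Gabarapl1 (1.36) and Ulk1 (0.79) were higher at the end of the fast in DRF and Tfeb (-0.36) was lower, while the NRF points lie between -0.21 and 0.19 and are all open.

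Map1lc3b (gene 67443, chromosome 8, 121590438 to 121598760) encodes LC3B, the ATG8 protein commonly used to mark autophagosomes. Its libraries held 209, 233, 212 and 201 CPM in DRF at ZT16 against 173, 166, 180.0 and 164 in NRF, and 229, 204, 235 and 251 at ZT24 against 184, 169, 187 and 171. The regimens did not overlap at these times and overlapped at all others. The difference was 0.32 ± 0.08 at ZT16 (limma adjusted p = 0.0158) and 0.37 ± 0.08 at ZT24 (adjusted p = 0.00314). Leaving out DRF ZT16 replicate 2 or replicate 3 ended the ZT16 call (adjusted p = 0.0563 and 0.0586), as did total-count scaling (0.17, adjusted p = 0.107) and the log2 of the deposited values (0.0665). Map1lc3b had a rhythm in DRF (peak-to-trough 0.29, peak at 19.9 h, adjusted p = 0.00744), lost with the log2 of the deposited values (0.0760), and the difference between its curves in the 2 regimens missed the threshold (adjusted p = 0.0819), which 4 of 12 other settings and 2 of 56 single libraries left out turned into a call. The average over the day was higher in DRF by 0.12 ± 0.03 (adjusted p = 0.0104), lost under total-count scaling (0.04, adjusted p = 0.309), without ZT24 (0.09, adjusted p = 0.0601) and with the log2 of the deposited values (0.0980). Fast minus fed in DRF was 0.16 ± 0.07 for Map1lc3b (adjusted p = 0.0968) and passed in 4 of 12 other settings, among them total-count scaling (0.27, adjusted p = 0.00130), and in 1 of 56 cases of leaving out 1 library.

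Map1lc3b was also the one gene of the 10 that differed between ZT24 and ZT0 in DRF, by 0.35 ± 0.08 (limma adjusted p = 0.0384), where 0.274% of all genes did. In NRF none did in limma, and 0% of all genes passed. An unadjusted limma p under 0.05 was found in NRF for 3 of the 10, and for 934 of all 12024 genes. In DRF 7 of the 10 had an unadjusted limma p under 0.05 for this difference, as had 2283 of all 12024 genes. All 10 estimates were positive, from 0.05 in Becn1 to 0.55 in Gabarapl1, with a median of 0.27 beside 0.02 over all genes. The 64 bases that Map1lc3b shares with Zcchc14 (mean 32.8 CPM) leave its reads there uncertain.

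Map1lc3a (gene 66734, chromosome 2, 155276364 to 155278073) encodes LC3A. It ranged from 98.7 to 162 CPM in DRF (median 125) and from 90.4 to 161 in NRF (median 118), and its libraries overlapped at every time. Its rhythm in DRF (peak-to-trough 0.27, peak at 19.0 h, limma adjusted p = 0.0452) lay close to the threshold. It was lost in 18 of 56 cases of leaving out 1 library (highest adjusted p = 0.128, without DRF ZT20 replicate 1) and in 6 of 12 other settings, among them total-count scaling (0.0542), the gene-length trend removed (0.0899) and no ZT24 (0.0792). The average over the day differed by 0.03 ± 0.04 (adjusted p = 0.689).

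Of the receptors, Sqstm1 (gene 18412, chromosome 11, 50200152 to 50210820), which encodes p62 and is itself degraded with its cargo, was higher in DRF on average over the day, and its rhythm tests missed the threshold. Its libraries ranged from 389 to 606 CPM in DRF (median 498) and from 357 to 556 in NRF (median 420.3), and the average was higher by 0.19 ± 0.05 (limma adjusted p = 0.00497), 1.14-fold. This call held in all alternatives tried, with adjusted p from 0.00168 to 0.0342. At ZT24 the libraries held 566, 485, 468 and 535 CPM in DRF and 388, 389, 429 and 413 in NRF and did not overlap, with a difference of 0.34 ± 0.12 (adjusted p = 0.0702). The rhythm tests gave adjusted p of 0.707 in DRF and 0.915 in NRF.

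Bnip3 (gene 12176, chromosome 7, 138890836 to 138909506) marks mitochondria for removal. In DRF its libraries held 361, 246, 288 and 230.3 CPM at ZT0, 325, 264, 278 and 321 at ZT4, 235, 249, 237 and 223 at ZT12, and 366, 238, 384 and 360.2 at ZT24, so replicate 2 at ZT24 was again the low one. In NRF they ranged from 164 to 319.9 CPM (median 241), and the regimens were apart at ZT4, where NRF held 235, 233, 180.3 and 218 (0.46 ± 0.16, limma adjusted p = 0.205). Bnip3 had a rhythm in DRF (peak-to-trough 0.41, peak at 1.67 h, adjusted p = 0.0161), lost without ZT24 (adjusted p = 0.125). Its fast minus fed difference in DRF, 0.36 ± 0.14, missed the threshold (adjusted p = 0.0627), and passed in 5 of 12 other settings, among them total-count scaling (0.48, adjusted p = 0.0371) and no ZT0 (0.49, adjusted p = 0.0311). It also passed without DRF ZT24 replicate 2 (0.44, adjusted p = 0.0177) or DRF ZT0 replicate 4 (0.40, adjusted p = 0.0375).

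Ctsl (gene 13039, chromosome 13, 64361890 to 64370772), the lysosomal cysteine protease, ranged from 105 to 189 CPM in DRF (median 129.7) and from 104 to 143 in NRF (median 119.6). At ZT24 its libraries held 189, 123, 159 and 184 CPM in DRF and 126, 116, 117 and 128 in NRF, with replicate 2 of DRF inside the NRF range. The difference there was 0.40 ± 0.10 (limma adjusted p = 0.0117), lost without DRF ZT24 replicate 1 (0.0820) or replicate 4 (0.0835). On average over the day Ctsl was higher in DRF by 0.13 ± 0.04 (adjusted p = 0.0209), lost under total-count scaling (0.06, adjusted p = 0.326), without ZT24 (0.10, adjusted p = 0.0848) and with the log2 of the deposited values (0.0872). Its rhythm in DRF missed the threshold (adjusted p = 0.345) but passed under total-count scaling (0.0165). Macrophages also express Ctsl, and their 8 markers had summed group means of 106 to 183 CPM in DRF and 103 to 193 in NRF. On average 0 of 8 were higher in DRF (1 at an unadjusted limma p under 0.05), beside 8.35% of all genes. At ZT20 the macrophage sums were 183 CPM in DRF and 117 in NRF. Every DRF library of Ctsl was then above every NRF library (0.26 ± 0.10, limma adjusted p = 0.157). At ZT24 the macrophage sums were 129 CPM in DRF and 141 in NRF. The part of macrophages in the Ctsl results was not tested. The recovered counts of Ctsl hold decimals in 11 of 56 libraries, so part of its reads may be shared with another gene.

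Tfeb (gene 21425, chromosome 17, 47737037 to 47792416), the transcription factor of lysosomal genes, went the other way from Ulk1 and Gabarapl1 in DRF. Its libraries held 79.5, 69.7, 55.7 and 82.8 CPM at ZT0, 119, 84.0, 101 and 100.1 at ZT12, and 76.9, 103, 79.1 and 85.5 at ZT24 in DRF. In NRF they held 68.0, 58.0, 80.5 and 75.5 CPM at ZT0, 75.7, 81.8, 68.3 and 105 at ZT12, and 87.1, 74.9, 89.9 and 85.5 at ZT24. The regimens overlapped at every time. Tfeb was lower at the end of the fast than at the end of feeding by -0.36 ± 0.10 in DRF (limma adjusted p = 0.0126) and differed by 0.09 ± 0.10 in NRF (adjusted p = 0.714), a difference of -0.44 ± 0.15 between the regimens (adjusted p = 0.0289).

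The rhythm of Tfeb in DRF (peak-to-trough 0.45, peak at 15.1 h, limma adjusted p = 0.00302) held in all alternatives tried. The difference between its curves in the 2 regimens missed the threshold (limma adjusted p = 0.394). The fast minus fed call in DRF was lost without DRF ZT12 replicate 1 (adjusted p = 0.104) and without ZT0 (0.165). The call of unequal fast minus fed values was lost without either DRF ZT12 replicate 1 (0.103), NRF ZT12 replicate 4 (0.139), DRF ZT0 replicate 3 (0.0542) or NRF ZT0 replicate 2 (0.0524). It was also lost without ZT0 (0.480) and with the log2 of the deposited values (0.0618).

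**Figure D3:**
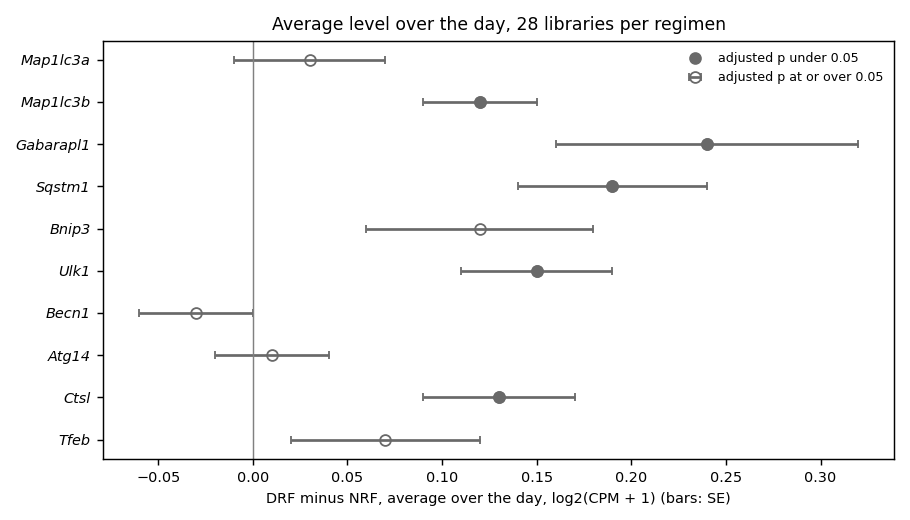
DRF minus NRF averaged over the day in log2(CPM + 1) for each gene, with bars for the SE of 28 libraries per regimen and filled points for an adjusted p under 0.05. Sqstm1, Map1lc3b, Ulk1, Ctsl and Gabarapl1 lie at 0.12 to 0.24 and are filled, and Becn1 (-0.03) is the one estimate below 0.

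Markers of muscle and of other cells moved with some of these results. All 5 red blood cell genes listed were higher in DRF on average, where 8.35% of all genes were, as were 5 of the 10 autophagy genes. The red blood cell genes had summed group means of 428 to 775 CPM in DRF against 296 to 461 in NRF. Of the 10 skeletal muscle markers 4 were higher on average. No tested marker of macrophages, adipocytes, endothelium, fibroblasts or satellite cells was. Of 5 endothelial markers (Pecam1, Cdh5, Kdr, Tek, Emcn) 4 were higher at the end of the fast in DRF, where 11.0% of all genes were. The fast minus fed difference was unequal in the regimens for 4 of them, as for Gabarapl1 and Ulk1, beside 19.2% of all genes. In NRF 2 of the 5 endothelial markers were lower at the end of the fast (5.32% of all genes) and 0 higher (4.47%). A rhythm passed in 4 of them in DRF (48.7% of all genes) and 3 in NRF (15.1%). Their curve differed between the regimens at the threshold in 0 (1 at an unadjusted limma p under 0.05), beside 13.1% of all genes. Missing the threshold does not show that the curves were equal. The summed group means of the endothelial markers ran from 219 to 345 CPM in DRF, lowest at ZT12, and from 243 to 358 in NRF. The part of these cells in the results was not tested.

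The 71 other genes of the pathway listed by role were all measured and tested. Their daily curve differed between the regimens in 13, which is 18.3% beside 13.1% of all genes tested. A rhythm passed in 43 in DRF (60.6% beside 48.7%) and in 12 in NRF (16.9% beside 15.1%), and the median peak-to-trough was 0.26 in DRF and 0.13 in NRF, beside 0.26 and 0.16. Averaged over the day 10 were higher in DRF (14.1% beside 8.35%) and 3 lower (4.23% beside 7.53%), with a median difference of 0.02. At the end of the fast in DRF 19 were higher (26.8% beside 11.0%) and 5 lower (7.04% beside 9.52%). In NRF 7 were higher (9.86% beside 4.47%) and 2 lower (2.82% beside 5.32%). The fast minus fed difference was unequal in 18 (25.4% beside 19.2%), more positive in DRF in 11 and more negative in 7. At ZT24 13 were higher in DRF (18.3% beside 3.49%). The shares for the NRF rhythm and the daily curve lie near those of all genes.

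By role, RNA was higher at the end of the fast in DRF for 4 of 6 other genes of the lipid kinase complex, 3 of 9 genes of membrane supply, 2 of 8 other receptors, 1 of 10 conjugation genes and 1 of 10 other lysosomal genes, where 11.0% of all genes were. The same held for 1 of 4 other initiation genes, 2 of 8 fusion genes, 2 of 5 genes of transcriptional control, 3 of 9 upstream and accessory regulators and 0 of 2 other ATG8 genes. Lower were 1 initiation gene (Atg101), 1 receptor (Fundc1), 2 upstream regulators (Deptor and Prkaa2) and 1 gene of the lipid kinase complex. That gene, Rubcn, an inhibitor of the complex, was lower by -0.33 ± 0.09 (limma adjusted p = 0.00552). The lipid kinase itself, Pik3c3, was higher at the end of the fast in DRF (0.31 ± 0.05, adjusted p = 1.61e-05) and in NRF (0.28 ± 0.05, adjusted p = 0.000124). Its curve, like that of Atg14, peaked at different hours, 1.54 h in DRF and 9.71 h in NRF (adjusted p of the difference 7.71e-06).

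The other genes with the smallest adjusted p for a different curve included Retreg1, Mitf, Depp1, Wipi2 and Atp6v1h, beside Pik3c3 and Rubcn. The call was lost without ZT24 for Depp1 (limma adjusted p = 0.101) and Atp6v1h (0.138), under total-count scaling for Atp6v1h (0.0808) and with the log2 of the deposited values for Wipi2 (0.0666). Retreg1, a receptor for autophagy of the endoplasmic reticulum, spanned 1.07 from peak to trough in DRF but 0.28 in NRF (limma adjusted p = 0.000970) and was higher at the end of the fast in DRF by 1.03 ± 0.18 (adjusted p = 2.98e-05). Depp1, an autophagy regulator induced by FoxO factors, was higher at the end of the fast in both regimens, by 1.96 ± 0.47 in DRF (adjusted p = 0.00225) and 1.41 ± 0.47 in NRF (adjusted p = 0.0476). Mitf, of the same family as Tfeb, had a rhythm in both regimens, with peaks at 3.56 h and 17.9 h (adjusted p of the difference 0.00387).

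Averaged over the day, Wdr45, a phosphoinositide-binding protein, was higher in DRF by 0.22 ± 0.04 (limma adjusted p = 0.000295), Calcoco1 by 0.15 ± 0.04 (0.00534), Atp6v0d1 by 0.13 ± 0.03 (0.00968), Gabarap by 0.12 ± 0.03 (0.0100) and Gabarapl2 by 0.11 ± 0.03 (0.0166). Total-count scaling ended the calls of Calcoco1 (0.107), Atp6v0d1 (0.316), Gabarap (0.405) and Gabarapl2 (0.319), and removing the gene-length trend ended those of Atp6v0d1 (0.110), Gabarap (0.0926) and Gabarapl2 (0.134). With the log2 of the deposited values the calls of Gabarap (0.0507) and Gabarapl2 (0.109) were lost. With the authors' library sizes 4 of the 5 ATG8 family genes tested, all but Map1lc3a, were higher on average in DRF, beside 8.35% of all genes. Under total-count scaling each of these 4 calls was lost.

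Chosen after their values were seen, 3 upstream genes had unequal fast minus fed values in the 2 regimens. Ddit4, an inhibitor of mTORC1, was higher at the end of the fast in NRF by 2.35 ± 0.33 (limma adjusted p = 6.89e-07) and differed by -0.17 ± 0.33 in DRF (0.750). Sesn1, also an inhibitor of mTORC1, was higher in DRF by 0.67 ± 0.12 (6.29e-05) and lower in NRF by -0.43 ± 0.12 (0.0144). Thus Sesn1 was higher at ZT0 and ZT24 together than at ZT12 in both regimens. Atg101, a subunit of the ULK1 complex, was lower at the end of the fast in DRF by -0.53 ± 0.10 (0.000248) and higher in NRF by 0.65 ± 0.10 (1.26e-05), so it was higher at ZT12 than at ZT0 and ZT24 together in both regimens. Its fitted peaks lay at 13.6 h in DRF and 13.5 h in NRF, and the curves did not differ at the threshold (limma adjusted p = 0.832).

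**Figure D4:**
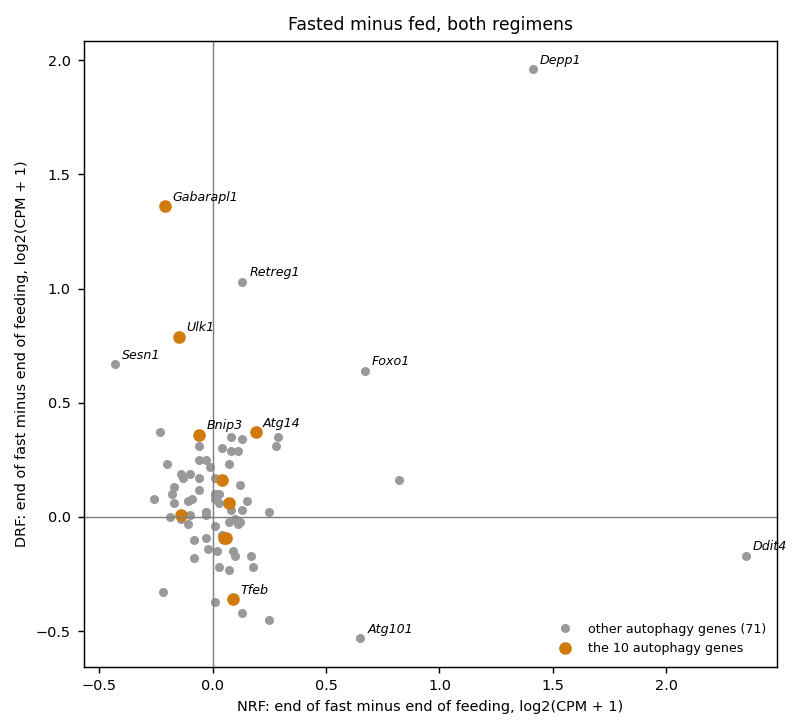
End of fast minus end of feeding in DRF (vertical) against NRF (horizontal), both in log2(CPM + 1), for the 10 autophagy genes (orange) and the 71 other pathway genes (grey). Gabarapl1 and Ulk1 lie high at slightly negative NRF values, Depp1 is high in both, and Ddit4 lies far right at -0.17 in DRF.

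Among all genes tested, those whose 14 group means followed the 3 genes most closely included, for Ulk1, Gabarapl1 (Pearson's r = 0.94) and Cd300lg (0.93). For Gabarapl1 they were Rpusd2 (0.96), Rit1 (0.96) and Cd300lg (0.95), and for Atg14 Lrrc61 (0.95), Hspbap1 (0.93) and Nrde2 (0.93). These are descriptions over 14 points that share libraries.

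The authors' deposited table of rhythm tests gave a q-value under 0.05 in DRF for only Gabarapl1 (3.44e-06), Ulk1 (5.15e-06), Atg14 (0.00642) and Tfeb (0.0124) among the 10 genes. The DRF rhythms found by limma for Bnip3, Becn1, Map1lc3b and Map1lc3a did not pass in the authors' test (q = 0.0933, 0.443, 0.545 and 0.804). For NRF the authors' deposited table gave one for Atg14 (0.00574) only among the 10 genes. In the authors' deposited table the phase of Atg14 was 23.0 h in DRF and 7.70 h in NRF.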

How the data were processed

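The authors deposited a score for 19072 genes in 56 libraries, under a file header that reads TPM, and the values follow log2(1 + 1000000 × c / N) divided by gene length and scaled to a sum of 1000000 per library (c an estimated count, N a library size). This form was read from the values and is stated by no source. HISAT2, Bowtie2 and RSEM, with mm10 and GRCm38.p6, are named in the submitters' processing notes. The score was inverted to counts. A gene was accepted if 90% of its values above 0, at least 4 of them, were whole reads, or whole hundredths of a read for decimal counts, to a tolerance of 0.001 of a unit. Lengths were set on 1516 calibration genes. Of 17442 genes recovered, 12024 with a mean CPM of at least 1 were tested, 10583 in whole reads and 1441 in decimal counts. Another 1629 genes had fewer than 4 values above 0 and 1 could not be solved. Running the formula forwards returned the deposited values to 2.93e-13, which shows rounding only.

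CPM were computed per 1000000 of N (0.854 to 1.205 times the recovered totals). The fit was limma 3.58.1 in R 4.3.3 (mean-variance trend) on log2(CPM + 1) over all 14 groups, which understates the change of low genes, with a 24 h cosine and sine per regimen for rhythm and 14 group means for all other contrasts. ZT0 and ZT24 counted together as 1 of 6 times in the average. The authors also deposited a table of their own rhythm tests per regimen, with p-values and q-values. No column was unused. No strand-marking step is described per the labels, and reads of overlapping or antisense genes cannot be told apart. Alternatives were another pseudocount (0.25, 5), no filter, other scalings, limma voom, library weights, the deposited values, a gene-length trend removed, a 12 h harmonic, no ZT0 or ZT24, a replicate block and each library left out.

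The 10 genes, the lists and the tests were chosen with earlier results of these data known. All 10 are named. Of 71 other pathway genes the 8 with the smallest adjusted p of the rhythm difference and the 5 with the smallest among those past the threshold on average are named, and for 3 genes the 3 nearest in group means by Pearson's r, except that some genes these rules name are not reported here.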

Additional observations from a re-analysis of the deposited data

Results flagged for a closer look

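In 8 of 140 groups of 4 libraries (5.71%, where chance gives about 1 in 20) the library at one end of a group lay far from the other three. These were Map1lc3a in NRF at ZT12 (90.4 CPM) and ZT16 (101), Map1lc3b in DRF at ZT0 (211), Gabarapl1 in DRF at ZT12 (37.7) and ZT20 (85.2), Bnip3 in DRF at ZT24 (238), Ctsl in NRF at ZT16 (119.5) and Tfeb in DRF at ZT8 (70.5). The Gabarapl1 library at ZT20 is DRF replicate 1, the one that stands apart over all genes. The Bnip3 library is DRF ZT24 replicate 2, which was also the lowest of its group for Gabarapl1, Ulk1, Map1lc3a, Map1lc3b, Ctsl and Atg14. For Tfeb (103 CPM) and Becn1 (62.8 CPM) that library was the highest of its group.

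By a test of the difference itself, the regimens differed in the 24 h curve of Atg14 (limma adjusted p = 7.71e-06), Ulk1 (0.00340) and Gabarapl1 (0.00458). The fast minus fed values of the 2 regimens were unequal for Ulk1 (limma adjusted p = 4.52e-07), Gabarapl1 (1.73e-05) and Tfeb (0.0289). The same curve in both regimens can also make these values unequal. For Tfeb the 24 h curves did not differ at the threshold (limma adjusted p = 0.394).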

How the results depend on the processing

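No result changed direction while past the threshold in both settings, and 39 sign changes occurred between values that both missed it. With the log2 of the deposited value plus 1, 5 genes had a rhythm in DRF, 1 differed on average and 0 differed between ZT24 and ZT0. Total-count scaling left Sqstm1 of the 5 genes higher on average and called Becn1 lower, 2 in all, gave 0 between ZT24 and ZT0, and moved the median average difference of all genes from -0.001 to -0.071. Leaving out ZT24 left 2 on average and 3 at single times. Library weights gave 1 for fast against fed in NRF and 3 for ZT24 against ZT0. The causes were not tested. Leaving out 1 library gave 4 to 6 genes at single times, 4 to 5 on average, 0 to 3 between ZT24 and ZT0, 3 to 6 for fast against fed in DRF and 0 to 0 in NRF. It gave 2 to 4 for the unequal fast minus fed difference, 7 to 8 for rhythm in DRF, 1 to 1 in NRF and 3 to 4 for the rhythm difference. No value for ZT24 against ZT0 exists without ZT0 or ZT24, and the 12 h harmonic bears on rhythm counts only.

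Replicate numbers are shared between groups but do not pair the libraries: deviations of libraries with the same number correlated at -0.017 on average, those with other numbers at 0.006, and 8 of 56 libraries were closest to their own number. With the replicate block the counts were those of the fit without it except that Gabarapl1 lost its average difference (limma adjusted p = 0.0519), which left 4 genes. Depth is high for these genes, of which Atg14 was lowest at 7.63 CPM or more, and the spread between 4 libraries limits the precision.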
